A study of Mus musculus with 11 samples.

Results

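The mitochondrial respiratory chain subunits encoded in the nucleus were taken as the 83 genes, of 49315 in the count table, whose symbols begin with the names used for complex I (Ndufa, Ndufb, Ndufc, Ndufs and Ndufv), complex II (Sdha to Sdhd), complex III (Uqcr), complex IV (Cox4 to Cox8) or complex V (Atp5). The choice was made by name. The names gave 37 genes for complex I, 4 for complex II, 8 for complex III, 18 for complex IV and 16 for complex V, and 81 of them had enough reads to be tested. Cox7b2 and Cox8c, both isoforms of complex IV subunits, had 0 or 1 read in every library and are given no further value. Some names are misleading. Ndufa4 was named as a complex I gene although its protein sits in complex IV, Ndufa4l2 is the paralog of Ndufa4, Cox7a2l helps to join complexes into supercomplexes, and Atp5s is a coupling factor rather than a core subunit.

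The data were polyadenylated or ribosomal RNA-depleted bulk RNA-seq libraries, as the labels leave both open, of skin biopsies from 11 neonatal Foxp3-DTR mice, which express the diphtheria toxin receptor from the Foxp3 promoter so that diphtheria toxin (DT) removes regulatory T cells (Tregs). All 11 mice carried the receptor, both sexes were present, and all libraries were labelled as batch 1. Control mice (PBS, n = 2) received PBS. ΔETreg mice (EarlyDT, n = 3) received 2 doses of DT at 30 ng/g on postnatal days (P) 6 and 8, ΔLTreg mice (LateDT, n = 3) received 2 doses on P10 and P12, and ΔTreg mice (FullDT, n = 3) received 4 doses from P6 to P12. ΔETreg skin was taken on P9, and ΔLTreg and ΔTreg skin on P13. The labels give no harvest day for these control mice. The ΔTreg and ΔLTreg groups were therefore the only pair of known equal age that differed in regimen, and in every other comparison age and regimen cannot be told apart. Toxin was given to whole animals, so Tregs outside the skin were targeted as well.

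Each library held between 23377571 and 34159435 assigned reads, and the 83 genes took 0.723% to 0.926% of them. Foxp3, the gene that drives the toxin receptor, had 9 to 23 reads per library. Its level, in reads scaled to library size after TMM normalization (CPM), was 0.56 and 0.70 CPM in control skin and 0.35 to 0.69 CPM in the 9 toxin-treated mice. The groups overlapped, and depletion in the skin could not be read from Foxp3 at this depth. By flow cytometry the paper reports efficient loss of skin Tregs on P9 under the ΔETreg regimen and on P13 under the ΔLTreg regimen. Myh4, the adult fast myosin heavy chain of skeletal muscle that comes on after birth, was at 3.57 and 3.94 CPM in the controls and at 3.00 to 6.24 CPM in ΔETreg skin, but at 19.3 to 274 CPM in the 6 mice of the P13 groups.

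The respiratory chain sits in the inner mitochondrial membrane. Complexes I and II take electrons from NADH and succinate, complex III passes them to cytochrome c, and complex IV hands them to oxygen. Complexes I, III and IV pump protons in doing so, and complex V, the ATP synthase, uses the returning protons to make ATP. Most subunits are encoded in the nucleus and are made in every cell. Several subunits of complex IV exist as paired isoforms, one general and one known as the isoform of heart and skeletal muscle. In the skin, keratinocytes of the growing epidermis and hair follicle are known to rely heavily on glycolysis.

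Nuclear respiratory factors and related regulators are known to bind upstream of many of these genes. RefSeq promoter windows (build GRCm38.p6) were at hand for 66 of the 83 genes, and in each the 250 bases before the transcription start were searched on both strands for 6 short motifs. GCGCNNGCGC, the site of nuclear respiratory factor NRF1, stood in 14 of the 66 windows, or 21.2%, against 5.64% of 27025 genes, and among genes with a single window the shares were 19.7% and 5%. CCGGAAG, an ETS family site, stood in 18.2% of the members and 7.83% of all genes, and AAGGTCA, the site of the oestrogen-related receptors, in 7.58% and 4.7%. ACGTG, the core of the hypoxia response element, was about as frequent in the members (19.7%) as in all genes (18.5%). CAGCTG, an E-box used by muscle regulators, was in 9.09% of the members against 14.7% of all genes, and CTANNNNTAG, the core of the MEF2 site, in 1.52% against 3.7%. No motif contains another whole, and the base composition of the windows was not matched. A match is a stretch of letters and not evidence of binding.

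Upstream stretches of 4 members, whose genes are among those described below, are shown. They were chosen after their values were seen and are printed 5′ to 3′ on the strand of the gene, ending before the first annotated exon. Ndufs5 (chr4:123718236-123718336, minus strand) shows the NRF1 site in capitals, Atp5g1 (chr11:96075681-96075781, minus strand) and Cox5a (chr9:57521072-57521172, plus strand) show ACGTG in capitals, and the muscle isoform gene Cox8b (chr7:140900456-140900556, minus strand) shows the E-box in capitals. The same E-box letters also stand, unmarked, in the stretch of Ndufs5, and the window of the muscle isoform gene Cox7a1 held none. No window was given for Ndufa4l2 or Cox6a2.
Ndufs5: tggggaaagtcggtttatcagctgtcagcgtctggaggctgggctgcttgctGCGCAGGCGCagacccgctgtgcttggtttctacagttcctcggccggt
Atp5g1: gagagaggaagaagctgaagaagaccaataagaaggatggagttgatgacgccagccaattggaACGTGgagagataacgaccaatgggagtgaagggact
Cox5a: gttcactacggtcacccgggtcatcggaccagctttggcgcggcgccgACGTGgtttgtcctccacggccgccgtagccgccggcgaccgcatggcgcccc
Cox8b: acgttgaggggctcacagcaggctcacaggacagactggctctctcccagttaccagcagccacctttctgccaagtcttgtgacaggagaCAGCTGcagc

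Most subunit genes were abundant. On the TPM scale, which also divides by gene length, the mean over 11 mice passed 100 TPM in 52 of the 81 genes, and 5 were under 20 TPM. The median subunit of complex I stood at 117 TPM, of complex II at 115 TPM, of complex III at 159 TPM, of complex IV at 174 TPM and of complex V at 177 TPM. The highest were Cox6a1 of complex IV at 935 TPM and Atp5a1, the catalytic partner subunit α of ATP synthase, at 687 TPM. Lengths were those of all annotated exons of a gene merged, which understates genes with long minor transcripts such as Ndufb2 (13.7 TPM, the lowest of complex I). The muscle isoforms were a small share of their pairs. Cox6a2 made up 2.12% to 9.69% of the TPM of Cox6a2 and Cox6a1 together over the 11 mice, Cox7a1 5.22% to 17.0% of Cox7a1 and Cox7a2, and Cox8b 4.62% to 13.8% of Cox8b and Cox8a.

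The subunits moved together from mouse to mouse. For each mouse the log2 CPM of each gene was set relative to its mean over the 11 mice, and the median was taken over the subunits. This median was −0.14 and 0.11 in the control mice, −0.14, −0.10 and −0.06 in ΔETreg mice, 0.08, 0.11 and 0.18 in ΔLTreg mice and −0.03, −0.01 and −0.01 in ΔTreg mice. The 3 ΔLTreg mice stood above every ΔTreg mouse and every ΔTreg mouse stood above every ΔETreg mouse, while the controls spanned nearly the whole range. Over all 18375 genes tested the same median stayed within −0.01 and 0.01 in every mouse. In bulk skin, fewer cells of a type and less RNA per cell cannot be told apart, here and in all results below. The order ΔETreg, ΔTreg, ΔLTreg was the order of the group means in each of the 5 complexes, and the spread of group means was smallest in complex II (−0.06 to 0.08) and largest in complex IV (−0.15 to 0.14).

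**Figure D1:**
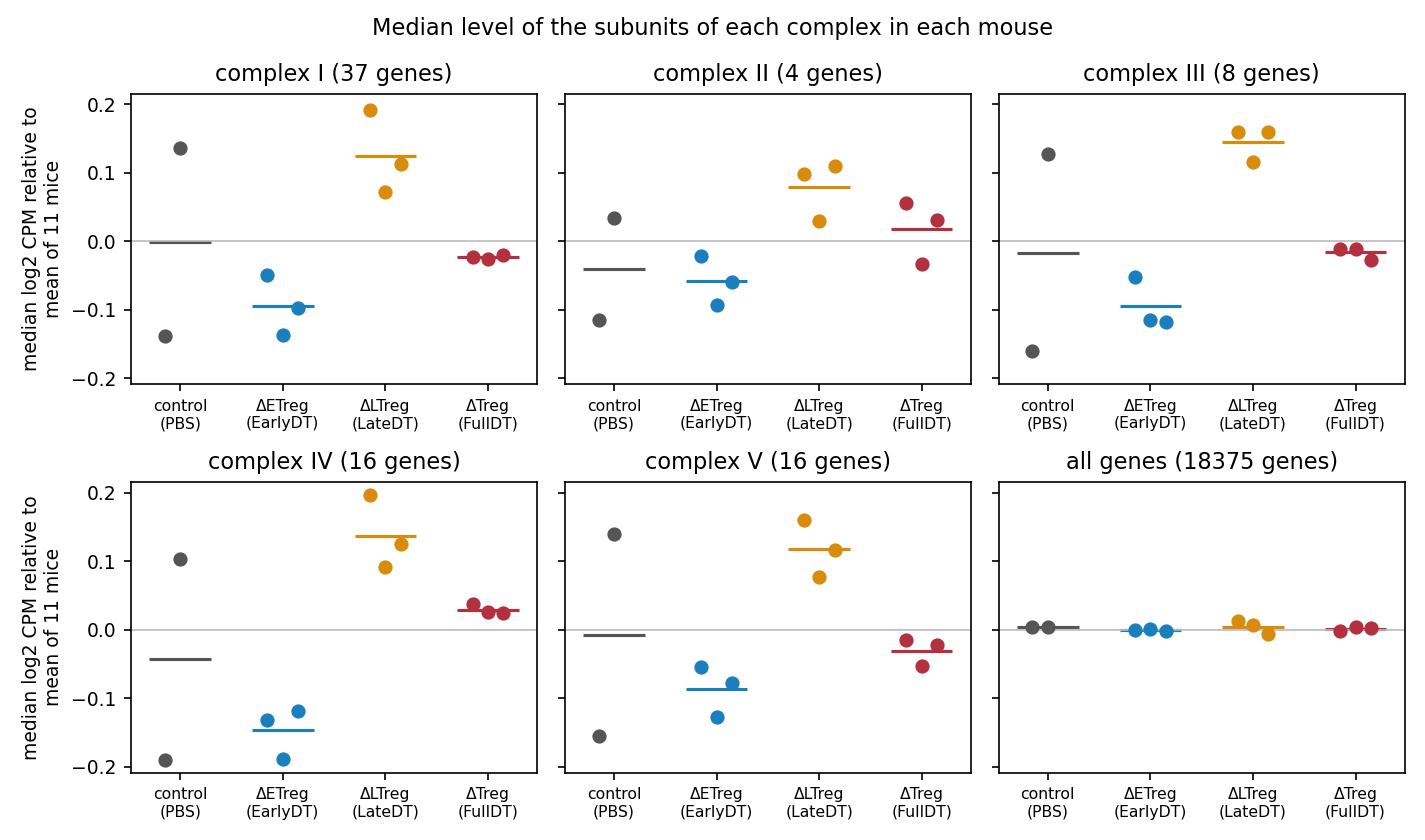
Each point is 1 mouse and shows the median, over the genes of a complex, of log2 CPM relative to the gene's mean over 11 mice, with lines at group means (n = 2 control, n = 3 in the other groups). In complexes I, III, IV and V the 3 ΔLTreg mice lie above all ΔETreg and ΔTreg mice and the 2 control mice lie far apart, while the median of all 18375 genes is flat.

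The 2 control mice limit every comparison with control skin. The second control exceeded the first in 79 of 81 subunits, with a median difference of 0.27 on the log2 scale, whereas 8774 of 18375 genes were higher in it and the median difference over all genes was −0.01. By their Xist and Ddx3y reads the first control was female and the second male. The summed level of the 13 subunit genes of the mitochondrial genome differed in the same direction, at 12627 and 17611 CPM. The part of age, sex or RNA quality in this difference was not tested.

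No subunit passed the test between ΔETreg and control skin. The quasi-likelihood test of edgeR, with p-values adjusted by Benjamini-Hochberg across 18375 genes, called 0 of 81 subunits in either direction, beside 1 gene of all genes, or 0.00544%. The median log2 fold change of the subunits was −0.09 and that of all genes −0.01, and 71 of the 81 estimates lay below 0. At an unadjusted p under 0.05 there were 7 subunits by edgeR and 1 by DESeq2, which also called 0. The smallest p belonged to Cox7a2l, the supercomplex factor. Its level was 104 and 121 CPM in control skin and 99.5, 87.8 and 85.5 CPM in ΔETreg skin. All 3 ΔETreg mice lay below both controls, but the log2 fold change of −0.31 (SE 0.0797) did not pass (adjusted p = 0.902). Every mouse lay below both controls for 6 subunits and above them for 0, where 10.3% and 9.35% of all genes did so. The median turned to 0.056 without the second control mouse and was −0.23 without the first.

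ΔLTreg skin carried slightly more subunit RNA than control skin. Atp5g1 and Cox5a were called higher and 0 subunits lower, where 4.55% of all genes were called in either direction, 1.86% higher and 2.69% lower. The median log2 fold change was 0.13, against 0.00 for all genes, and 77 of 81 estimates were above 0. All 3 ΔLTreg mice exceeded both controls for 27 subunits, where 15% of all genes did so, and lay below both for Cox6b2, where 17.2% of all genes did so. By complex the median was 0.12 for complex I, 0.09 for complex II, 0.17 for complex III, 0.21 for complex IV and 0.10 for complex V. Without the first control mouse it was −0.0075 for complex I and −0.016 for complex V.

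Atp5g1 is 1 of 3 genes for subunit c, which forms the rotating ring of ATP synthase. Its level was 64.6 and 81.4 CPM in control skin and 97.9, 86.8 and 96.3 CPM in ΔLTreg skin, a log2 fold change of 0.36 (SE 0.0887, adjusted p = 0.0451). Cox5a encodes a matrix-side subunit of complex IV. It stood at 50.4 and 57.1 CPM in control skin and at 61.9, 62.2 and 66.3 CPM in ΔLTreg skin, a log2 fold change of 0.24 (SE 0.0603, adjusted p = 0.0485). Neither gene's ΔLTreg mice overlapped with the controls. Of 5 fits that each left out 1 mouse, 2 kept the call of Atp5g1 and 2 that of Cox5a, as did 5 and 3 of 8 other alternatives. Without the first control 0 subunits were called higher, with a median of 0.02, and without the second 17 were, with a median of 0.27.

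ΔTreg skin differed widely from control skin, with 21.5% of all genes called, but few subunit genes were among them. Of the 81 subunits, Ndufa4l2 was called higher and Atp5g2 lower, where 12.1% of all genes were called higher and 9.39% lower. The median log2 fold change was −0.01, as for all genes, with 39 estimates above 0 and 42 below. The medians of the complexes ran from −0.03 for complexes I and V to 0.07 for complex IV. All ΔTreg mice exceeded both controls for 5 subunits and lay below both for 3, where 26.8% and 25.8% of all genes did so.

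**Figure D2:**
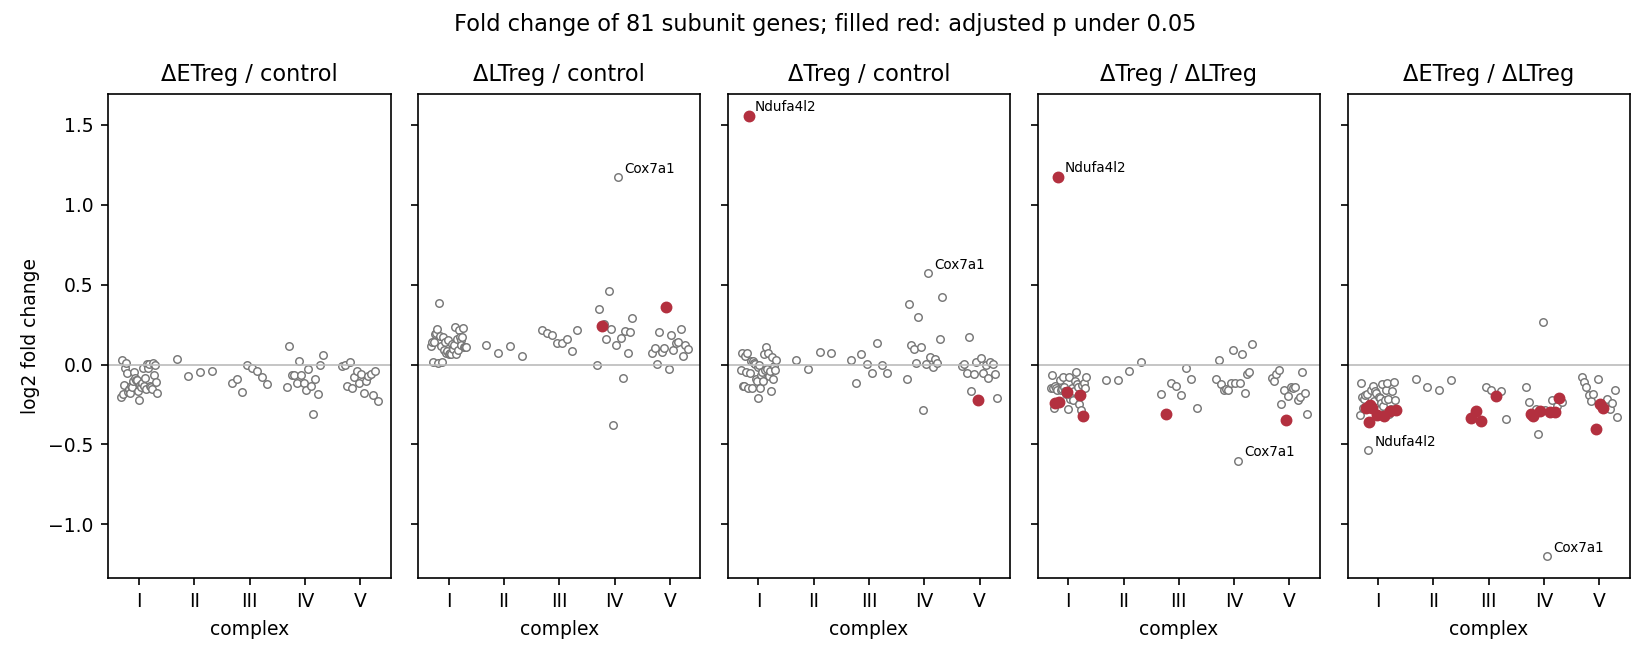
Each point is 1 of 81 subunit genes placed by complex, with the log2 fold change on the vertical axis and 1 panel for each of 5 comparisons, and filled red where the edgeR quasi-likelihood test gave an adjusted p under 0.05. Points sit mostly above 0 for ΔLTreg against control and below 0 in both comparisons with ΔLTreg skin, and Ndufa4l2 stands apart where ΔTreg skin is compared.

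Ndufa4l2 (ENSMUSG00000040280, chr10:127514967-127517154, plus strand) had the largest fold change of the subunits called. It is the paralog of Ndufa4, is known to be induced under hypoxia through HIF1, and is known to lower mitochondrial oxygen use. Its level was 20.6 and 23.2 CPM in control skin, 13.7, 21.1 and 24.5 CPM in ΔETreg skin, 31.4, 30.1 and 24.2 CPM in ΔLTreg skin and 59.6, 71.6 and 62.1 CPM in ΔTreg skin. The 3 ΔTreg mice were far above the other 8, whose values overlapped between ΔETreg and control skin and between ΔETreg and ΔLTreg skin. Against control skin the fold was 2.94 (log2 1.56, SE 0.202, adjusted p = 0.000335). Against ΔLTreg skin of the same age the fold was 2.26 (log2 1.18, SE 0.172, adjusted p = 0.00083). Both calls held in all alternatives run.

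Its paralog did not pass the test. Ndufa4 was at 96.8 ± 17.2 CPM in control skin (SD, n = 2) and 87.3 ± 4.27 CPM in ΔTreg skin (SD, n = 3), a log2 fold change of −0.15 (SE 0.0959, adjusted p = 0.307). Ndufa4l2 therefore made up 45.5% to 50.2% of the TPM of the pair in ΔTreg skin and 15.9% to 28.6% in the other 8 mice. Cox4i2, the isoform of complex IV subunit 4 that is also known to respond to oxygen, stood at 3.08 and 3.62 CPM in control skin and 3.60, 5.46 and 3.93 CPM in ΔTreg skin. These groups overlapped, and its log2 fold change of 0.38 (SE 0.196) did not pass (adjusted p = 0.2).

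**Figure D3:**
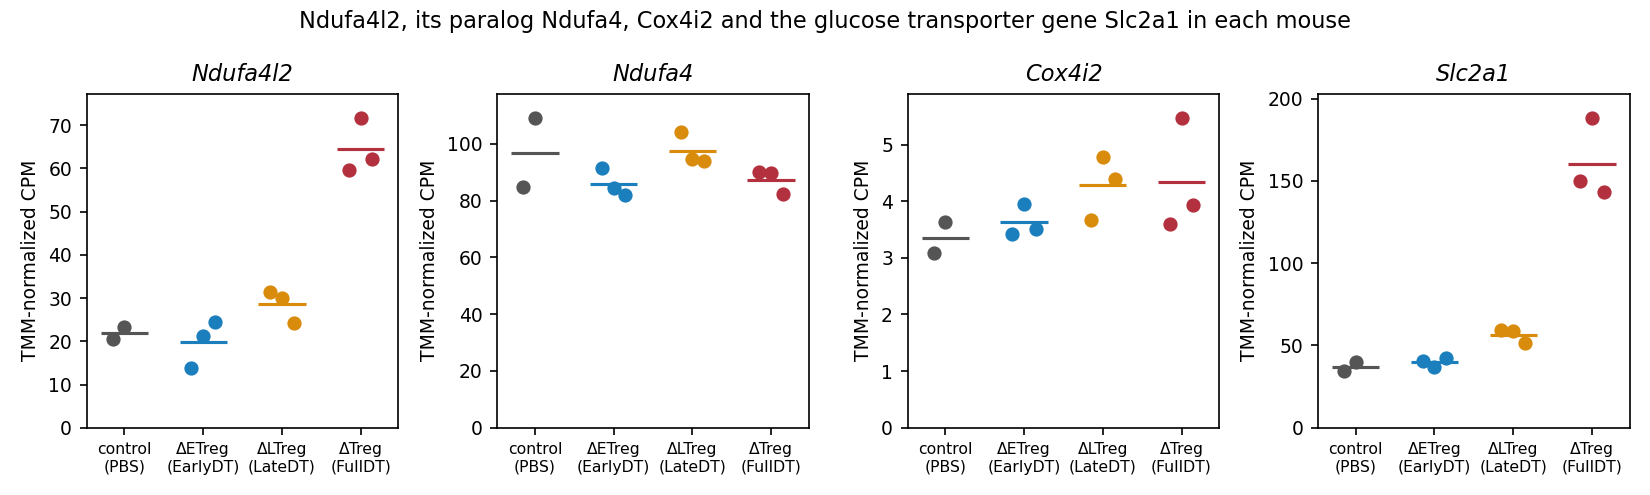
TMM-normalized CPM in each mouse, on linear axes from 0, with lines at group means (n = 2 control, n = 3 in the other groups). Ndufa4l2 lies between 59.6 and 71.6 CPM in ΔTreg skin and at or below 31.4 CPM in the other mice. For Ndufa4 the 3 ΔLTreg mice, at 94.0 CPM or more, lie above all ΔETreg and ΔTreg mice. The 2 controls stand at 84.6 and 109 CPM. For Cox4i2 the ΔLTreg mice lie above the controls and overlap with ΔETreg and ΔTreg mice. The glucose transporter gene Slc2a1 is at 143 to 188 CPM in ΔTreg skin and at or below 59.3 CPM in the other mice.

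Glycolysis genes were called in large numbers in 4 of the 5 comparisons. Of 15 genes on the glycolysis list, 14 were called higher in ΔTreg than in control skin and 0 lower, where 12.1% and 9.39% of all genes were. The median log2 fold change of the 15 was 0.66. Slc2a1, the glucose transporter GLUT1, had the largest value at 2.11 (SE 0.127, adjusted p = 2.26e-06), and Pfkp, a phosphofructokinase, followed by p with 1.14 (SE 0.0862, adjusted p = 1.01e-05). In ΔLTreg skin 11 of the 15 were called higher than control, where 1.86% of all genes were, with a median of 0.44. Pkm, the last enzyme of the pathway, led by p with 0.54 (SE 0.0757, adjusted p = 0.00325). This count was 2 without the first control mouse and 0 when the 2 groups were fitted alone. In ΔETreg skin 0 were called in either direction at a median of −0.01, and 0 had an unadjusted p under 0.05 by edgeR or DESeq2. These 3 comparisons share the control mice. Between ΔTreg and ΔLTreg skin 9 glycolysis genes were higher and 0 lower, where 10.7% and 6.11% of all genes were, at a median of 0.31. In ΔETreg against ΔLTreg skin 12 were lower and 0 higher, where 3.12% and 3.27% of all genes were, at a median of −0.46. DESeq2 called 13 lower there, and edgeR called 5 without the second ΔETreg mouse.

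T cell and myeloid markers, taken as a sum, were also highest in ΔTreg skin. The summed level of 10 markers, among them Cd4 and Cd8a, was 246 to 303 CPM in ΔTreg skin, against 96.5 and 136 CPM in control skin, 70.0 to 101 CPM in ΔETreg skin and 79.2 to 157 CPM in ΔLTreg skin, and 8 of the 10 were called higher in ΔTreg than in control skin. Of 10 skin epithelium and fibroblast markers 1 was called higher and 5 lower in that comparison, where 12.1% and 9.39% of all genes were. Their part in the level of Ndufa4l2 was not tested.

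Atp5g2 was the subunit called lower in ΔTreg skin. Its level was 79.0 and 94.4 CPM in control skin and 72.8, 75.4 and 74.4 CPM in ΔTreg skin, so the groups did not overlap. The log2 fold change was −0.22 (SE 0.0696, adjusted p = 0.0416). The call was kept in 1 of 5 fits that left out 1 mouse and in 2 of 8 other alternatives, with an edgeR adjusted p of 0.395 without the second control. Atp5g2 and Atp5g1 encode the same mature protein, as does Atp5g3, the most abundant of these genes at 190 ± 22.9 CPM in control skin (SD, n = 2). Against control skin Atp5g3 had a log2 fold change of 0.04 (SE 0.0663, adjusted p = 0.69) and Atp5g1 of 0.01 (SE 0.0882, adjusted p = 0.931). Without the first control 15 subunits were called lower in ΔTreg skin, with a median of −0.13, and without the second 0 were lower and 4 higher, with a median of 0.12.

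ΔTreg skin held less subunit RNA than ΔLTreg skin of the same age. Of the 81 subunits 7 were called lower and Ndufa4l2 alone higher, where 16.8% of all genes were called in either direction, 6.11% lower and 10.7% higher. The median log2 fold change was −0.14, against −0.00 for all genes, and 75 of 81 estimates were below 0. All 3 ΔTreg mice lay below all 3 ΔLTreg mice for 55 subunits, where 16.7% of all genes did so. The reverse held for Ndufa4l2, where 19.2% of all genes did so. The medians were −0.15 for complex I, −0.07 for complex II, −0.16 for complex III, −0.11 for complex IV and −0.15 for complex V, and each kept its direction when any 1 mouse was left out.

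The 7 lower subunits were Ndufa2, Ndufa5, Ndufb3, Ndufs5 and Ndufs8 of complex I, Uqcr11 of complex III and Atp5g1 of complex V. Ndufa2 and Ndufs5 were named after their values were seen. Uqcr11, the smallest subunit of complex III, was at 83.3, 74.0 and 74.6 CPM in ΔLTreg skin and at 63.6, 61.4 and 61.9 CPM in ΔTreg skin, a log2 fold change of −0.31 (SE 0.0671, adjusted p = 0.00851). Atp5g1 was at 97.9, 86.8 and 96.3 CPM in ΔLTreg skin and at 73.4, 71.9 and 75.7 CPM in ΔTreg skin, a log2 fold change of −0.35 (SE 0.0785, adjusted p = 0.0112). Neither gene's groups overlapped, and both calls held in all alternatives run. Ndufs8, one of the iron-sulfur core subunits of complex I, was at 64.0, 60.3 and 63.3 CPM in ΔLTreg skin and at 49.0, 50.3 and 51.1 CPM in ΔTreg skin, a log2 fold change of −0.32 (SE 0.0824, adjusted p = 0.022). The 3 ΔTreg mice again lay below all ΔLTreg mice. Ndufb3 was the least firm of the 7 (log2 fold change −0.17, SE 0.0526, adjusted p = 0.0498), and its call was lost in every alternative run. Of 6 fits that each left out 1 mouse, 2 kept the call of Ndufs8, 1 that of Ndufs5, 3 that of Ndufa2 and 4 that of Ndufa5. The count of lower subunits was 2 without the third ΔTreg mouse and at most 6 without any other 1 mouse.

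**Figure D4:**
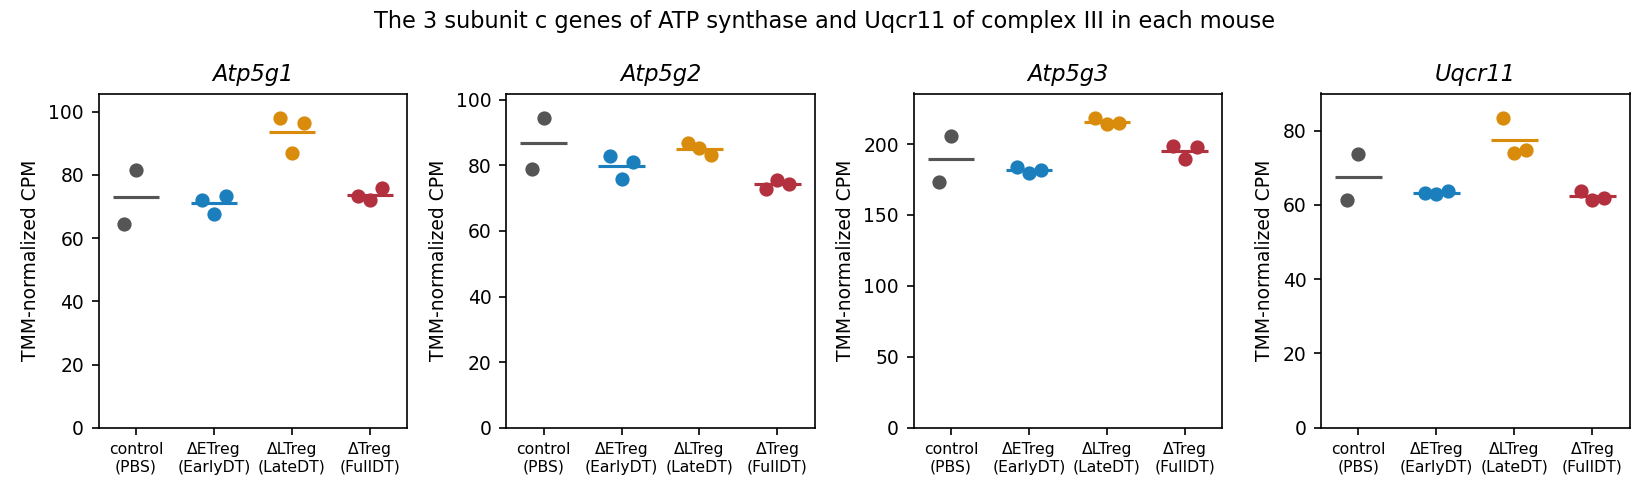
TMM-normalized CPM of the 3 subunit c genes and of Uqcr11 in each mouse, on linear axes from 0, with lines at group means (n = 2 control, n = 3 in the other groups). For Atp5g1 and Uqcr11 the 3 ΔLTreg mice lie above all 8 other mice, at 86.8 CPM or more and 74.0 CPM or more, and the 2 control mice lie apart in every panel.

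Other core subunits described here did not pass the test between ΔTreg and ΔLTreg skin. Ndufs1 and Ndufv1, which carry electrons through complex I, had log2 fold changes of −0.05 (SE 0.0672, adjusted p = 0.67) and −0.12 (SE 0.0399, adjusted p = 0.0698). Uqcrfs1, the Rieske iron-sulfur protein of complex III, had −0.02 (SE 0.049, adjusted p = 0.79). Atp5a1 and Atp5b, the α and β subunits of ATP synthase, had −0.08 (SE 0.0569, adjusted p = 0.361) and −0.10 (SE 0.0652, adjusted p = 0.332). Complex II had 0 calls by edgeR and by DESeq2 in all 5 comparisons, with 1 of 4 genes at an unadjusted p under 0.05 by edgeR between ΔTreg and ΔLTreg skin and 2 between ΔETreg and ΔLTreg skin. Sdha, its flavoprotein, stood at 218, 221 and 231 CPM in ΔLTreg skin and at 210, 200 and 218 CPM in ΔTreg skin, with a log2 fold change of −0.09 (SE 0.054, adjusted p = 0.268). No test compared the core subunits with the others.

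The largest number of calls was between ΔETreg and ΔLTreg skin, where mice of P9 were set against mice of P13. In ΔETreg skin 21 of the 81 subunits were lower and 0 higher, where 6.38% of all genes were called, 3.12% lower and 3.27% higher. The lower genes were 8 of complex I, 4 of complex III, 6 of complex IV and 3 of complex V. The median log2 fold change was −0.23, against −0.01 for all genes, and 80 of 81 estimates were below 0, the exception being Cox6b2. All 3 ΔETreg mice lay below all 3 ΔLTreg mice for 68 subunits, where 13.7% of all genes did so, and above them for Cox6b2, where 12.6% of all genes did so. The medians were −0.22 for complex I, −0.12 for complex II, −0.24 for complex III, −0.28 for complex IV and −0.22 for complex V.

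Ndufa5, an accessory subunit of complex I, had the smallest p. It was at 38.9, 39.2 and 39.7 CPM in ΔLTreg skin and at 30.9, 30.2 and 30.7 CPM in ΔETreg skin, a log2 fold change of −0.36 (SE 0.0556, adjusted p = 0.00519). Replicates of each group differed by less than 1 CPM and the groups did not overlap. Cox5a was at 51.5, 51.8 and 50.6 CPM in ΔETreg skin, below its ΔLTreg values given above, with a log2 fold change of −0.31 (SE 0.0536, adjusted p = 0.00865). Uqcrb, a small subunit of complex III, was at 90.4, 95.1 and 98.3 CPM in ΔLTreg skin and at 74.6, 72.8 and 74.4 CPM in ΔETreg skin, a log2 fold change of −0.36 (SE 0.0675, adjusted p = 0.0135). Atp5g1 had the lowest fold change of those called, −0.40 (SE 0.0787, adjusted p = 0.0156). The log2 fold changes of the other 17 called subunits lay between −0.33 and −0.20. The count of lower subunits was 3 without the second ΔETreg mouse, 7 with library size as the only scaling, and at most 15 without any other 1 mouse.

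Since ΔLTreg mice take part in both of the last comparisons, the 2 sets of calls are not independent. The 3 ΔLTreg mice were above all 8 other mice for 19 of the 81 subunits (23.5%), against 473 of 18375 genes (2.57%). The 19 were 9 of complex I, 4 of complex IV and 2 each of complexes II, III and V, with Sdha and Sdhb among them. The 3 ΔETreg mice were below all 8 other mice for 5 subunits (6.17%), Atp5h, Cox7a2l, Ndufa5, Ndufa6 and Ndufb3, against 248 genes (1.35%).

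The muscle isoforms of complex IV varied widely between mice of a group. Cox6a2 was at 10.3 and 12.9 CPM in control skin, 10.8, 8.35 and 16.4 CPM in ΔETreg skin, 16.7, 5.41 and 25.3 CPM in ΔLTreg skin and 14.8, 11.3 and 16.6 CPM in ΔTreg skin. Cox7a1 was at 1.86 and 3.35 CPM, at 2.68, 1.94 and 3.04 CPM, at 6.26, 2.47 and 8.58 CPM and at 4.16, 2.97 and 4.42 CPM in the same order of groups and mice. Cox8b was at 6.09 and 8.92 CPM, at 7.11, 5.52 and 10.9 CPM, at 9.60, 4.35 and 13.4 CPM and at 11.9, 8.20 and 10.2 CPM. All 3 genes were low in the second ΔLTreg mouse and high in the other mice of that group, so that ΔLTreg skin overlapped with every other group. With all mice and the filter on low counts, edgeR called none in any comparison. Cox7a1 came closest, with a log2 fold change of −1.20 (SE 0.389, adjusted p = 0.0944) between ΔETreg and ΔLTreg skin and 1.17 (SE 0.445, adjusted p = 0.166) between ΔLTreg and control skin. DESeq2 called it lower in ΔETreg than in ΔLTreg skin (adjusted p = 0.0349), and without the second ΔLTreg mouse edgeR called it in both of these comparisons (adjusted p = 0.0106 and 0.0219), as well as between ΔTreg and ΔLTreg skin (adjusted p = 0.034). With no filter on low counts edgeR called it in all 3 comparisons with ΔLTreg skin, with adjusted p = 0.000265 against control, 1.27e-05 against ΔETreg and 0.0385 against ΔTreg skin.

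**Figure D5:**
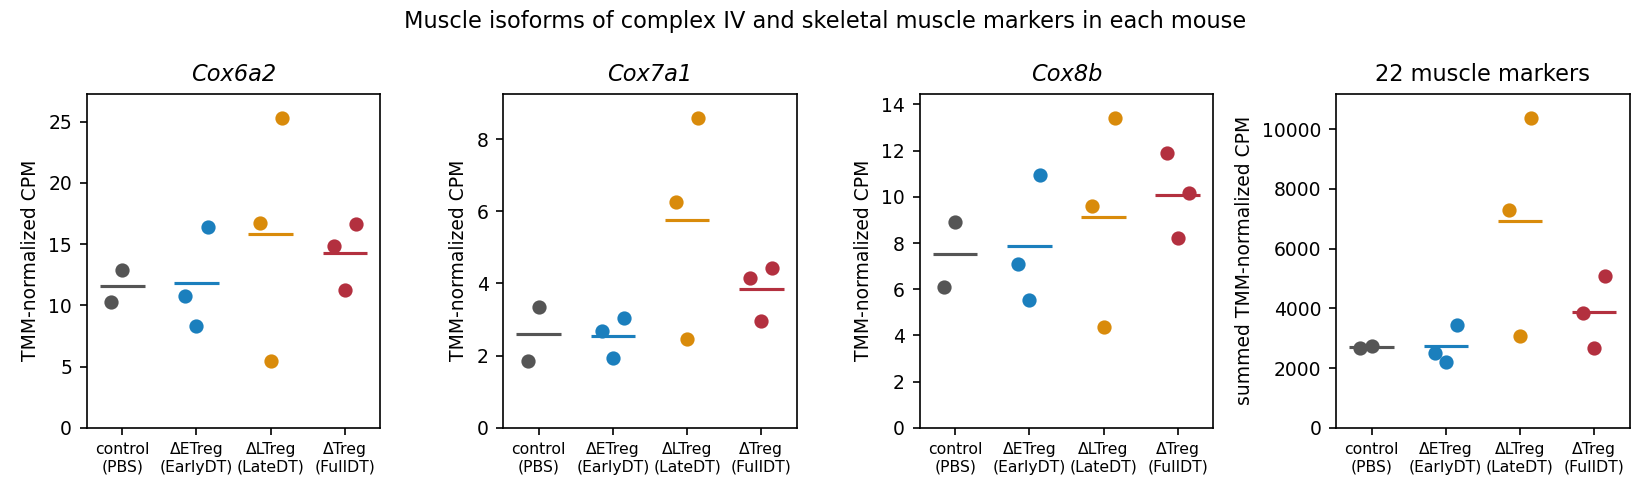
TMM-normalized CPM of 3 muscle isoforms of complex IV and the summed CPM of 22 skeletal muscle markers in each mouse, on linear axes from 0, with lines at group means (n = 2 control, n = 3 in the other groups). In all 4 panels the second ΔLTreg mouse is the lowest of its group and the third the highest.

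Skeletal muscle markers followed the same mice. The summed level of 22 markers, all of which were tested and among which Ckm and Acta1 are defining, was 2677 and 2724 CPM in control skin and 2515, 2206 and 3456 CPM in ΔETreg skin. It was 7294, 3088 and 10366 CPM in ΔLTreg skin and 3855, 2671 and 5070 CPM in ΔTreg skin. Of the 22 markers 5 were called higher in ΔLTreg than in control skin, where 1.86% of all genes were. Lower than in ΔLTreg skin were 8 in ΔTreg and 11 in ΔETreg skin, where 6.11% and 3.12% of all genes were. With 1 mouse left out these counts ran from 1 to 16, 4 to 19 and 2 to 18, and DESeq2 called 4, 4 and 9. Against control skin edgeR called 3 markers higher and 3 lower in ΔTreg skin, where 12.1% and 9.39% of all genes were. DESeq2 called 8 and 2 there. The log2 fold changes by edgeR ran from −2.75 for Myh8 to 3.46 for Myh4. In the second ΔLTreg mouse, whose marker sum was within the range of the ΔTreg mice, the median of all subunits was 0.08, above that of every ΔTreg and ΔETreg mouse. With Cox6a2, Cox7a1, Cox8b, Ndufa4l2 and Cox4i2 left out, the remaining 76 subunits had medians of −0.15 for ΔTreg against ΔLTreg and −0.22 for ΔETreg against ΔLTreg skin. The part of muscle in the subunit values was not tested. Ucp1, the defining marker of brown fat, had 0 to 3 reads per library. Of 6 brown adipocyte markers 5 were tested, and edgeR called 2 lower and 0 higher in ΔTreg than in ΔLTreg skin. Of all genes 6.11% were lower and 10.7% higher there. The 2 markers were Cidea, at mean levels of 41.5 CPM in ΔLTreg and 26.9 CPM in ΔTreg skin, and Dio2, at 1.91 and 1.21 CPM. DESeq2 called 1 lower, and Pdk4 had a log2 fold change of 1.16 without a call. Against control skin edgeR called Dio2 lower in both groups. The part of brown adipocytes in the subunit values was not tested. The summed level of 8 white adipocyte markers was 462 to 651 CPM in ΔLTreg skin and 409 to 474 CPM in ΔTreg skin. Their median log2 fold change between these groups was −1.57. Every ΔTreg mouse lay below every ΔLTreg mouse for 6 of the 8, where 16.7% of all genes did so. By edgeR 1 of the 8 was called lower, where 6.11% of all genes were. It was Adipoq, the adiponectin gene (−2.19, SE 0.658, adjusted p = 0.0432). DESeq2 called 6 of the 8 lower, and the part of adipocytes in the subunit values was not tested.

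The general partners of the muscle isoforms stood many times higher and kept the order seen for the other subunits. Cox6a1 was at 232 ± 33.7 CPM in control skin (SD, n = 2), 214 ± 3.77 CPM in ΔETreg skin, 260 ± 17.7 CPM in ΔLTreg skin and 234 ± 6.60 CPM in ΔTreg skin (SD, n = 3 each). Cox7a2 and Cox8a, the partners of Cox7a1 and Cox8b, were lower in ΔETreg than in ΔLTreg skin with log2 fold changes of −0.30 (SE 0.0683, adjusted p = 0.0287) and −0.21 (SE 0.0509, adjusted p = 0.0346). Cox6b2, known as the testis isoform of subunit 6b, stood out by its direction. Its log2 fold change was −0.38 (SE 0.14, adjusted p = 0.156) for ΔLTreg against control skin, while that of its partner Cox6b1 was 0.22 (SE 0.0615, adjusted p = 0.0664), and neither passed.

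Other mitochondrial genes were read from fixed lists. Of 13 subunit genes of the mitochondrial genome, which encodes members of complexes I, III, IV and V, 11 were tested and edgeR called 0 in any comparison. By edgeR 2 of them had an unadjusted p under 0.05 when ΔETreg was compared with control, 3 when ΔTreg was compared with ΔLTreg and 7 when ΔETreg was compared with ΔLTreg skin. DESeq2 called 5 lower in each of the latter comparisons. Their median log2 fold change was −0.40 for ΔETreg against ΔLTreg and −0.24 for ΔTreg against ΔLTreg skin, with 11 and 10 of 11 estimates below 0. Between single mice their sums ranged from 11304 to 18024 CPM. Coverage of these genes was uneven. Group means of mt-Co2, mt-Co3, mt-Atp6 and mt-Atp8 were 0.194 to 1.48 CPM, against 5356 to 6685 CPM for mt-Co1. Those of mt-Nd3 and mt-Nd4l were at most 0.31 CPM. The medians and counts above therefore include genes with few reads, among them mt-Atp6 and mt-Atp8, the complex V genes.

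Assembly factors, which build the complexes but are not part of them, had 43 of 45 genes tested. For ΔTreg against ΔLTreg skin their median was −0.14, with Acad9, a complex I assembly factor, at −0.29 (SE 0.0425, adjusted p = 0.000852) and Ecsit, also of complex I assembly, at −0.22 (SE 0.0588, adjusted p = 0.0275) as the 2 called lower. Of all genes 6.11% were called lower there. Acad9 was also called lower in ΔTreg than in control skin (−0.26, SE 0.0473, adjusted p = 0.0027), as was Atpaf1, which helps to assemble ATP synthase (−0.36, SE 0.0712, adjusted p = 0.00418). In the comparisons of ΔETreg with control, ΔLTreg with control and ΔETreg with ΔLTreg skin both edgeR and DESeq2 called 0, while 1, 5 and 10 had an unadjusted p under 0.05 by edgeR.

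Of 13 tricarboxylic acid cycle genes, Mdh2, the mitochondrial malate dehydrogenase, was called in 3 comparisons. Its log2 fold change was 0.27 (SE 0.0511, adjusted p = 0.0167) for ΔLTreg against control, −0.16 (SE 0.0453, adjusted p = 0.033) for ΔTreg against ΔLTreg and −0.23 (SE 0.0454, adjusted p = 0.0156) for ΔETreg against ΔLTreg skin. DESeq2 called 0 genes of the list in the first 2 of these comparisons. The median of the list was 0.10, −0.10 and −0.09 in these comparisons. By edgeR 3 of the 13 were lower in ΔTreg than in ΔLTreg skin and 0 higher, where 6.11% and 10.7% of all genes were. Idh3g had the smallest p there. Against control skin 1 was higher and 1 lower in ΔTreg skin, where 12.1% and 9.39% of all genes were. Mdh2 was the only call for ΔLTreg against control and for ΔETreg against ΔLTreg skin, where 4.55% and 6.38% of all genes were called. Of 15 electron carriers and other mitochondrial markers, Cycs, the cytochrome c that links complexes III and IV, was lower in ΔETreg than in ΔLTreg skin (−0.31, SE 0.0656, adjusted p = 0.0222). In ΔTreg skin 4 of the 15 were lower than in ΔLTreg skin and 0 higher, where 6.11% and 10.7% of all genes were. Among the 4 were the mitochondrial chaperonin gene Hspd1 (−0.27, SE 0.0527, adjusted p = 0.00514) and Etfb, a subunit of the electron transfer flavoprotein (−0.27, SE 0.0666, adjusted p = 0.0166). Against control skin 1 of the 15 was higher and 2 were lower in ΔTreg skin, where 12.1% and 9.39% of all genes were.

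Ppargc1a, the coactivator PGC-1α that drives mitochondrial biogenesis, was among 15 biogenesis regulators. It was at 7.49 and 6.77 CPM in control skin, 6.30, 7.10 and 7.11 CPM in ΔETreg skin, 12.9, 9.65 and 10.1 CPM in ΔLTreg skin and 11.3, 10.7 and 11.1 CPM in ΔTreg skin. All 6 mice of the P13 groups were above all other mice. The log2 fold change against control was 0.61 (SE 0.131, adjusted p = 0.0269) in ΔLTreg and 0.63 (SE 0.131, adjusted p = 0.00632) in ΔTreg skin. DESeq2 called 0 of the 15 regulators higher in ΔLTreg than in control skin. Ppargc1b, its relative PGC-1β, was higher in ΔTreg skin, with 0.65 against control (SE 0.136, adjusted p = 0.00642) and 0.75 against ΔLTreg skin (SE 0.12, adjusted p = 0.00148). The list as a whole did not move one way. In ΔTreg against control skin 4 of the 15 were called higher and 0 lower, where 12.1% and 9.39% of all genes were. The median was −0.06, with 9 estimates below 0. Against ΔLTreg skin Ppargc1b was the 1 called higher and Ppara the 1 called lower, where 10.7% and 6.11% of all genes were, at a median of −0.0003.

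Ribosomal protein genes, a list added after the values were seen, served as another set of short and abundant transcripts. Of 87 tested cytosolic ribosomal protein genes edgeR called 0 in any of the 5 comparisons, while 29 had an unadjusted p under 0.05 when ΔETreg was compared with control and 0 to 15 did so in the others. DESeq2 called 9 lower in ΔTreg than in ΔLTreg skin and at most 1 elsewhere. Their median was −0.08 for ΔTreg against ΔLTreg and −0.11 for ΔETreg against ΔLTreg skin. Of 78 mitochondrial ribosomal protein genes, added at the same time, 15 were lower and 0 higher in ΔTreg than in ΔLTreg skin. Of all genes 6.11% were lower and 10.7% higher. The median of the 78 was −0.14, as was the median of the subunits. Between ΔETreg and ΔLTreg skin 2 of the 78 were lower and 0 higher, where 3.12% and 3.27% of all genes were. Their median there was −0.14, against −0.23 for the subunits.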

How the data were processed

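Skin biopsies of 11 Foxp3-DTR mice were sequenced. The authors trimmed the reads with Trimmomatic 0.36, aligned them to GRCm38 with STAR 2.5.2b and counted them per gene with featureCounts (Subread 1.5.2), and deposited whole-number counts; the annotation release and strand setting are not given in the sources used here. Groups came from the treatment labels.

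The deposited counts were tested with edgeR 4.0.16 in R 4.3.3 (filterByExpr, which left 18375 genes, TMM scaling, and the quasi-likelihood test over 11 libraries in 1 fit), and p-values were adjusted across those genes by Benjamini-Hochberg, with a threshold of 0.05. Standard errors (SE) were log2 fold changes over the square root of F. Gene positions and lengths came from GENCODE on GRCm38, and log2 CPM used a prior count of 2. Reads of near-identical copies and pseudogenes may be split. No pair of libraries of a group agreed within counting error. The edgeR p-values set each difference against a spread between mice, which was estimated over all groups together and moderated across genes. Alternatives were DESeq2 1.42.0 (size factors and Wald test), library size, other filters, each pair of groups alone, sex, 1 surrogate variable from sva 3.50.0 and leaving out each mouse. The script was tested on simulated data.

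Named genes were paired isoforms, core subunits, the 2 smallest p and both extremes of each complex and comparison, genes failing the filter, and, from each list, the 2 smallest p and defining markers. Members and lists were chosen with earlier results of these data known, so their counts are not independent evidence.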

Additional observations from a re-analysis of the deposited data

How the results depend on the processing

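The 2 control mice limit every comparison with control skin. Of the alternatives, 1009 kept direction and side of the threshold or stayed close to the reported value. In 68 a call was lost, in 9 one was gained, in 3 the direction was reversed, and 112 counts or medians moved. The tally includes counts on the glycolysis and skeletal muscle lists, and counts that stayed at 0. The cause of these changes was not tested except where samples or genes were removed. No paired analysis was possible because the labels give no replicate number shared by groups.

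Of the 2 subunits higher in ΔLTreg than in control skin, 1 was left with DESeq2 size factors, 0 with library size alone, 0 by the DESeq2 Wald test and 0 with the 2 groups only, and 4 were called with no filter. The subunits higher in ΔTreg than in control skin were 2 with a filter of 10 counts, 2 with sex as covariate and 2 with 1 surrogate variable. The 1 lower subunit became 0 with library size alone, 0 with the filter of 10 counts, 0 by DESeq2, 0 with the 2 groups only, 0 with sex and 0 with the surrogate variable. Between ΔTreg and ΔLTreg skin the 7 lower subunits became 12 with no filter, 12 by DESeq2 and 17 with the 2 groups only. Between ΔETreg and ΔLTreg skin the 21 lower subunits became 7 with library size alone and 38 with no filter.

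With 1 mouse left out, the counts ran from 0 to 17 (higher, ΔLTreg against control), 1 to 4 (higher, ΔTreg against control), 0 to 15 (lower, ΔTreg against control), 2 to 6 (lower, ΔTreg against ΔLTreg) and 3 to 15 (lower, ΔETreg against ΔLTreg). The median log2 fold change of all subunits ran from −0.23 to 0.056 for ΔETreg, 0.024 to 0.27 for ΔLTreg and −0.13 to 0.12 for ΔTreg against control, and kept its direction between ΔTreg and ΔLTreg (−0.16 to −0.13) and between ΔETreg and ΔLTreg skin (−0.26 to −0.20). Without the third ΔLTreg mouse Cox6a2 turned to −0.036 and Cox8b to −0.080 for ΔLTreg against control, and Cox6a2 to 0.070 for ΔETreg against ΔLTreg, in ranges of −0.036 to 0.87, −0.080 to 0.63 and −0.83 to 0.070. Ndufa4l2 stayed between 1.47 and 1.64 for ΔTreg against control and between 1.07 and 1.25 against ΔLTreg skin, with adjusted p of at most 0.00625 and 0.00458 over all alternatives. Subunits with few reads, such as Cox7a1 with 53 to 274 per library, are the least precise.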
